A study of Mus musculus with 12 samples.

Results

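Cathepsins are proteases of the lysosome. The 10 described here, Ctss, Ctsb, Ctsd, Ctsl, Ctsz, Ctsc, Ctsh, Ctsa, Ctsf and Ctso, were found by gene symbol among the 54532 genes of the deposited table, and all 10 were present. The list sets Ctss, known as an enzyme of microglia and macrophages, beside cathepsins that many cell types express. The list was chosen by its FPKM values in the CFA and saline libraries, with the difference between those groups already known. That difference is therefore given below as a description. Where members past a threshold are counted, the count places them among all genes and is no evidence about the list.

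Bulk RNA from the lateral septum of the mouse brain was sequenced in 12 libraries. The CFA group comprised 6 libraries from mice labelled WT with the treatment CFA, an abbreviation that commonly stands for complete Freund's adjuvant, an oil emulsion used to provoke lasting local inflammation. The saline group comprised 6 libraries from mice labelled WT with the treatment saline. All were labelled day 3. No source used here gives age, sex, strain or site of injection, and none states whether each library is a different animal. The p-values below therefore reflect only how these libraries spread, which may be technical.

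Most cathepsins are made as inactive precursors, carried to the lysosome by mannose 6-phosphate receptors and activated there at acid pH, where they break down proteins. Cysteine cathepsins (S, B, L, F, O, H, C and Z) use a cysteine in the active site, cathepsin D uses aspartate and cathepsin A uses serine, and cystatins inhibit the cysteine enzymes. Cathepsin S keeps its activity at neutral pH, cleaves the invariant chain Cd74 during antigen presentation, and in the spinal cord is released by microglia and sheds the chemokine fractalkine (Cx3cl1), whose receptor is Cx3cr1, a route studied in chronic pain.

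Expression was given as FPKM, fragments scaled by gene length and by the depth of the library. Levels of different genes thus depend on the gene lengths used, from 1358 bases for Ctss to 6489 bases for Ctsl. Whether these lengths are those of the transcripts present was not tested. Reads recovered from the FPKM steps summed to between 35462003 and 39153360 per CFA library and between 33557379 and 38418579 per saline library. The 10 genes were therefore well covered: the lowest count was 285 reads (Ctsh) and the highest 19797 reads (Ctsb).

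Several libraries stood apart from their group in genes other than cathepsins. Ttr, the main transcript of the choroid plexus, was 2259 FPKM in saline 3 and 701 FPKM in saline 5, against at most 44.5 FPKM in the CFA libraries and at most 66.6 FPKM in the remaining saline libraries. Xist was above 1 FPKM in 5 CFA and 2 saline libraries, and the Y-linked Ddx3y in the other libraries, 1 of CFA and 4 of saline. These genes mark female and male RNA, so by them the groups differed in their mix of sexes. Gt(ROSA)26Sor, a widely expressed noncoding gene, ranged from 0.126 to 3.49 FPKM in the CFA libraries and from 3.37 to 49.0 FPKM in the saline libraries, although all 12 carry the same WT label. The 6 lateral septum neuron markers were all expressed, with summed levels of 177 to 274 FPKM in CFA and 192 to 262 FPKM in saline.

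The sequence upstream of Ctss is shown because Ctss is the member whose groups did not overlap (below), and the short windows after it show a motif that 4 other members carry and Ctss does not. Sequences are those of RefSeq for GRCm38.p6, 250 bases before a transcription start, read on the strand of the gene; 8 of the 10 members, with 9 start sites, were in that table. The Ctss sequence is chr3:95526536-95526785, plus strand. Its capitals mark a match to a form of the interferon-stimulated response element, GAAA, a pair of any bases, then GAAA again:
Ctss: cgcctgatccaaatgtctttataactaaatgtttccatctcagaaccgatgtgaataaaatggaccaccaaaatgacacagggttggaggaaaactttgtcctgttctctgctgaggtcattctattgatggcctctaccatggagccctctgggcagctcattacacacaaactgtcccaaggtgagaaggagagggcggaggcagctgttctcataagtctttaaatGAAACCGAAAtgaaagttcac

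The match lies 21 bases before the start site. That motif was chosen after the Ctss sequence had been read; 2.98% of the 32851 promoters in the table hold it in either strand, as does 1 of the 9 promoters of the members.

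Capitals in the next 5 windows mark CACGTG, the palindromic E-box core of the sites bound by TFEB, a regulator of lysosomal genes. They were found in Ctsd 245 and 98 bases before the start site (chr7:142388055-142388077 and chr7:142387908-142387937, minus strand), in Ctsa 12 bases before (chr2:164833749-164833772, plus strand), in Ctsl 236 bases before (chr13:64370739-64370768, minus strand) and in Ctsf 79 bases before (chr19:4855074-4855103, plus strand). The windows of Ctsa and Ctsl and the proximal one of Ctsd lie inside the gene coordinates given below. Another start site of Ctsa, further upstream, had no match.
Ctsd, distal: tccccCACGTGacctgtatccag
Ctsd, proximal: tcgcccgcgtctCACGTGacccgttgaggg
Ctsa: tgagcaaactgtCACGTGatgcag
Ctsl: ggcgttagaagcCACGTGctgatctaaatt
Ctsf: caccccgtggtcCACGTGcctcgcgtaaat

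CACGTG was in 4 of the 9 promoters of the members and in 6.02% of all promoters. GAGGAAGT, a form of the site of the myeloid factor PU.1, was in 1 of the 9, that of Ctsc, and in 2.44% of all promoters. Neither TTCCNGGAA, a STAT type site (0.913% of all promoters), nor a consensus of the NF-kB type (0.356%), was in any of the 9. Both strands were searched for each, and these are matches of letters, not sites of binding.

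By FPKM the members covered a wide range of levels, and Ctss stood in the middle of it. Reads not scaled by length give another order: in CFA 1, Ctsl had 3304 reads and Ctss 1585. Ctsb, a cysteine protease that both cuts within proteins and trims their ends, was the most abundant at 85.1 ± 3.36 FPKM over the 12 libraries (SD), followed by the aspartic protease gene Ctsd at 65.9 ± 7.01 FPKM. Ctss (28.1 ± 5.48 FPKM), Ctsz (27.7 ± 3.52 FPKM) and Ctsf (26.4 ± 1.47 FPKM) lay close together. Ctsa (17.4 ± 1.72 FPKM), Ctsl (12.99 ± 0.830 FPKM) and Ctso (7.25 ± 0.477 FPKM) came next, and Ctsc (3.16 ± 0.487 FPKM) and Ctsh (2.50 ± 0.313 FPKM) were lowest.

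The order held in every library for Ctsb above Ctsd, Ctsd above Ctss, Ctsf above Ctsa, Ctsa above Ctsl, Ctsl above Ctso and Ctso above Ctsc. Among neighbours, Ctss, Ctsz and Ctsf were not separated, since Ctsz was above Ctsf in 8 of 12 libraries, and Ctsc was above Ctsh in 11. Ctss was above Ctsz in 5 of 6 CFA libraries and in 0 of 6 saline libraries. It was above Ctsf in 6 of 6 CFA libraries and in 1 of 6 saline libraries.

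**Figure D1:**
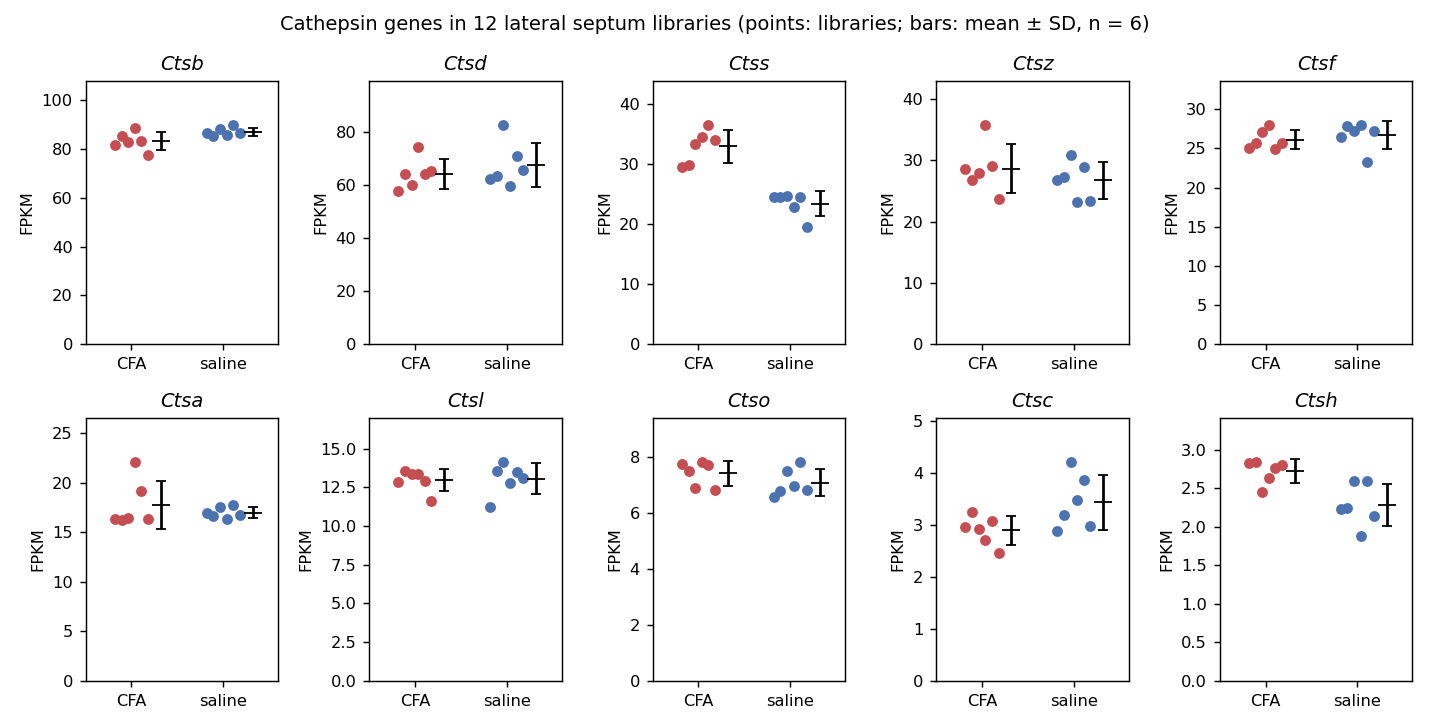
FPKM of the 10 cathepsin genes, ordered by mean level, with each point 1 library (CFA left, saline right, replicates 1 to 6 from left to right) and bars for the mean and SD of 6 libraries. The Ctss points of the CFA group, 29.4 to 36.5 FPKM, all lie above those of the saline group, 19.5 to 24.6 FPKM, while the groups overlap for the other 9 genes.

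Ctss (chromosome 3, 95526786 to 95556403, plus strand, 8 exons, ENSMUSG00000038642) was higher in every CFA library than in any saline library. It was 29.4, 29.9, 33.2, 34.4, 36.5 and 34.0 FPKM in CFA 1 to 6, against 24.5, 24.5, 24.6, 22.8, 24.4 and 19.5 FPKM in saline 1 to 6. Within saline, replicate 6 was lowest and the other 5 lay between 22.8 and 24.6 FPKM; within CFA, replicates 1 and 2 were lower than the other 4. The means were 32.9 ± 2.75 FPKM in CFA and 23.4 ± 2.04 FPKM in saline (SD, n = 6 each), a ratio of 1.41, and the difference on the log2(FPKM + 1) scale was 0.48 (SE 0.07, 95% interval 0.33 to 0.62). Each value rests on 964 to 1946 reads.

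In the limma fit over the 13345 genes that reached 1 FPKM in 6 or more libraries, Ctss was the 1 member of 10 past an adjusted p of 0.05. Of all tested genes 4 passed, or 0.03%, with 0.015% higher and 0.015% lower in CFA; rescaled to TPM the 4 were 3 higher and 1 lower, and with median ratio scaling there were 2 higher and 1 lower. It was also the 1 member whose groups did not overlap, as was the case for 0.495% of all tested genes, 0.202% with CFA higher and 0.292% with CFA lower. Because the list was chosen with this contrast known, these counts describe the list and support nothing.

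The difference of Ctss lay between 0.41 and 0.53 over 25 alternative settings and choices of libraries. It was 0.51 without saline 3 and saline 5, the libraries with high Ttr, and 0.45 with Xist as a covariate. In the libraries with Xist above 1 FPKM, Ctss was 29.4 to 36.5 FPKM in 5 CFA libraries, against 24.4 and 24.5 FPKM in 2 saline libraries. Among libraries without it, Ctss was 33.2 FPKM in the 1 CFA library, against 19.5 to 24.6 FPKM in 4 saline libraries.

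**Figure D2:**
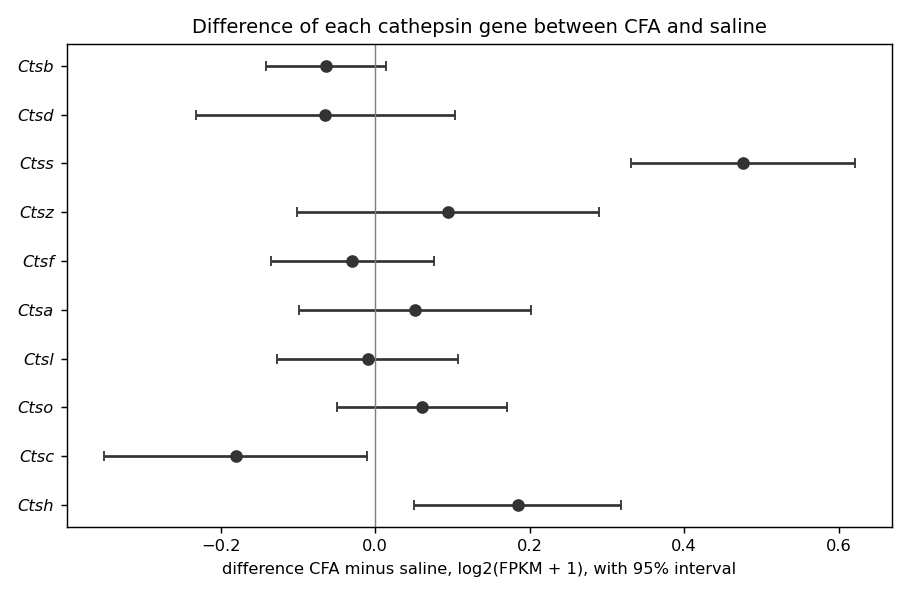
Difference of each cathepsin gene between CFA and saline (CFA minus saline, log2(FPKM + 1), points, with 95% intervals of the fit over all genes, 6 libraries each). Ctss stands at 0.48 with an interval of 0.33 to 0.62, and the other 9 genes lie between -0.18 and 0.18.

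The other cysteine endopeptidases differed little between groups. Ctsb (chromosome 14, 63122462 to 63145923, plus strand) was 81.5, 85.4, 82.9, 88.6, 83.3 and 77.6 FPKM in CFA 1 to 6, against 86.5, 85.4, 88.0, 85.7, 89.8 and 86.3 FPKM in saline 1 to 6. The groups overlapped, with 4 of 6 CFA libraries below the lowest saline library, and the saline libraries were close to each other, with a coefficient of variation of 1.94% against 4.43% in CFA. The difference was -0.06 (95% interval -0.14 to 0.01). Ctsb shares 774 exonic bases with Fdft1 on the opposite strand (17.2 FPKM in CFA, 16.1 FPKM in saline), and since strand use in counting is not given, those reads cannot be told apart.

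Ctsl (chromosome 13, 64359337 to 64370890, minus strand), a lysosomal endopeptidase that also processes neuropeptide precursors, ranged from 11.6 to 13.6 FPKM in CFA (median 13.1) and from 11.2 to 14.2 FPKM in saline (median 13.3), a difference of -0.01 (95% interval -0.13 to 0.11). Its sign changed in 9 of 25 alternatives. Ctsl shares exonic bases with an antisense gene and with a pseudogene, both listed at 0 FPKM in these libraries.

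Ctsf (chromosome 19, 4855129 to 4860912, plus strand), a cysteine cathepsin with a long propeptide, ranged from 24.9 to 28.0 FPKM in CFA and from 23.3 to 28.0 FPKM in saline (difference -0.03, 95% interval -0.13 to 0.08). Ctso (chromosome 3, 81932601 to 81956725, plus strand), a less studied cysteine cathepsin, ranged from 6.84 to 7.84 FPKM in CFA and from 6.55 to 7.81 FPKM in saline (0.06, 95% interval -0.05 to 0.17). Both genes thus had nearly the same range in the 2 groups.

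Of the exopeptidases, Ctsh was higher and Ctsc lower in CFA by amounts smaller than that of Ctss. Ctsh (chromosome 9, 90054152 to 90076089, plus strand), an aminopeptidase, was 2.82, 2.84, 2.45, 2.64, 2.77 and 2.81 FPKM in CFA 1 to 6, against 2.23, 2.24, 2.59, 1.88, 2.60 and 2.14 FPKM in saline 1 to 6. In 5 of 6 CFA libraries it was above every saline library, the exception being CFA 3, and saline 3 and saline 5 were the highest of their group. The means were 2.72 ± 0.152 FPKM in CFA and 2.28 ± 0.276 FPKM in saline (SD, n = 6 each), a ratio of 1.19 and a difference of 0.18 (SE 0.06, 95% interval 0.05 to 0.32).

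Ctsc (chromosome 7, 88278085 to 88310888, plus strand), the dipeptidyl peptidase that activates serine proteases of immune cell granules, was 2.96, 3.24, 2.92, 2.71, 3.07 and 2.46 FPKM in CFA 1 to 6, against 2.88, 3.18, 4.21, 3.48, 3.85 and 2.97 FPKM in saline 1 to 6. The groups overlapped, and the highest values were those of saline 3 and saline 5, the libraries with high Ttr. The difference was -0.18 (SE 0.08, 95% interval -0.35 to -0.01) over all libraries and -0.08 without saline 3 and saline 5. Whether choroid plexus RNA takes part in the Ctsc values was not tested.

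Ctsz (chromosome 2, 174427493 to 174439039, minus strand), a carboxypeptidase also called cathepsin X, varied most in CFA among the members, with a coefficient of variation of 13.9% in CFA and 11.4% in saline. It ranged from 23.7 to 35.8 FPKM in CFA and from 23.2 to 30.9 FPKM in saline. The difference was 0.09 (95% interval -0.10 to 0.29). It shares 10 exonic bases with Nelfcd on the opposite strand.

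The members outside the cysteine class overlapped between groups as well. Ctsd (chromosome 7, 142375911 to 142388038, minus strand), the main aspartic protease of the lysosome, was 57.9, 64.2, 60.2, 74.5, 64.2 and 65.2 FPKM in CFA 1 to 6, against 62.3, 63.6, 82.7, 59.9, 70.9 and 65.8 FPKM in saline 1 to 6. The 3 highest libraries were saline 3, CFA 4 and saline 5. The difference was -0.06 (95% interval -0.23 to 0.10) over all libraries and 0.03 without saline 3 and saline 5. Ctsd shares 808 exonic bases with Gm49369, a protein-coding gene on the same strand, listed at 0 FPKM in both groups.

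Ctsa (chromosome 2, 164832873 to 164841032, plus strand), a serine carboxypeptidase that protects the sialidase Neu1 and the galactosidase Glb1, was 16.3, 16.3, 16.4, 22.2, 19.2 and 16.4 FPKM in CFA 1 to 6, against 17.01, 16.7, 17.6, 16.3, 17.8 and 16.7 FPKM in saline 1 to 6. The other 4 CFA libraries were below the saline median, while CFA 4 and CFA 5 were above every saline library. The difference of 0.05 (95% interval -0.10 to 0.20) became -0.01 without CFA 4. Ctsa shares 495 exonic bases with Pltp (27.3 FPKM in CFA, 25.4 FPKM in saline) and 324 with Neurl2 on the opposite strand.

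CFA 4 was the highest CFA library for 6 of the 10 members and CFA 6 the lowest for 5. In saline, replicate 3 was the highest for 5 members and replicate 5 for 4. Thus 9 of the 10 had their highest saline value in 1 of the 2 libraries with high Ttr. The share of all tested genes with their highest saline value there was not computed, and several members varied together across libraries (below). The count is therefore a description only. For Ctss saline 3 was the highest, but by little, at 24.6 FPKM against 24.5 FPKM in saline 1 and saline 2.

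Set against its relatives within the same library, Ctss made up a larger part of the summed cathepsin FPKM in CFA. The 10 genes summed to 279 ± 16.6 FPKM in CFA and 274 ± 14.6 FPKM in saline (SD, n = 6 each), and these sums overlapped. Ctss was 11.8 ± 0.902% of the sum in CFA (10.9 to 12.9%) and 8.53 ± 0.660% in saline (7.38 to 9.20%). The shares of Ctsb were 29.9 ± 0.966% in CFA and 31.8 ± 1.28% in saline, and those of Ctsd 23.1 ± 1.08% in CFA and 24.6 ± 1.73% in saline.

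The ratio of Ctss to each other member did not overlap between groups for 7 of the 9, Ctsb, Ctsd, Ctsl, Ctsc, Ctsa, Ctsf and Ctso. Against Ctsb it was 0.396 ± 0.0373 in CFA and 0.269 ± 0.0226 in saline, and against Ctsf 1.26 ± 0.113 in CFA and 0.881 ± 0.112 in saline. The ranges overlapped against Ctsz, at 0.963 to 1.43 in CFA and 0.798 to 0.980 in saline, and against Ctsh, at 10.4 to 13.6 in CFA and 9.10 to 12.1 in saline. These ratios share the Ctss values and are a description of the same contrast.

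**Figure D3:**
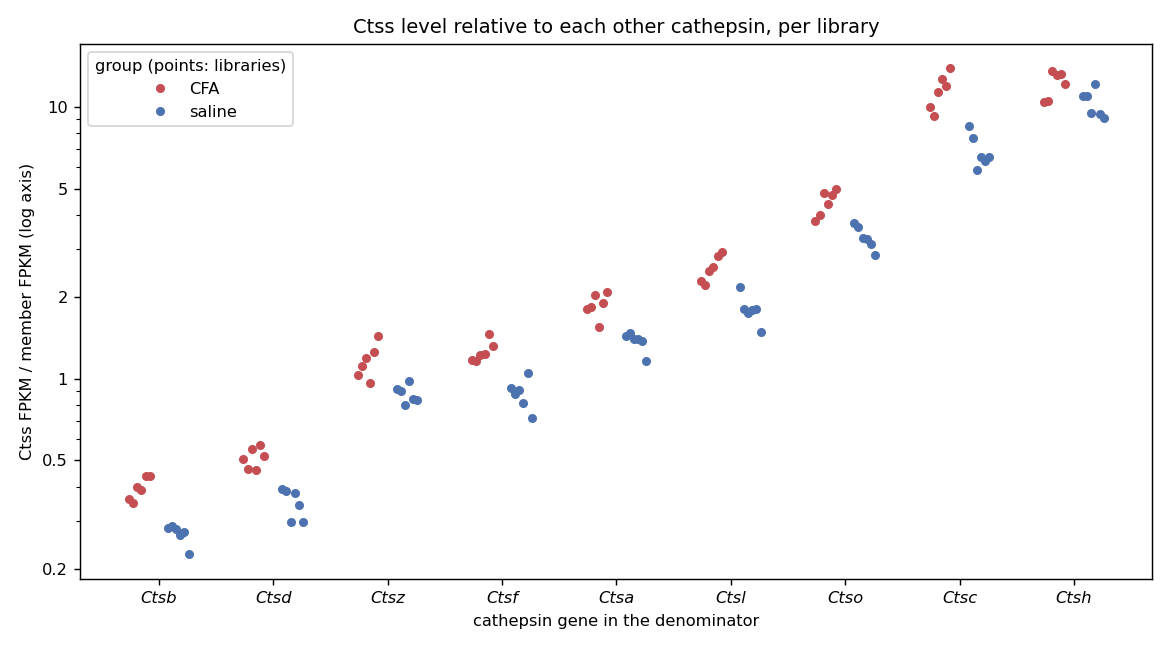
Ratio of Ctss to each other cathepsin within a library (FPKM over FPKM, log axis), CFA left and saline right for each gene, 6 points each. The CFA points lie above all saline points for every gene on the axis except Ctsz and Ctsh.

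Of the 13 other mouse cathepsin genes listed, 10 were listed at 0 in all 12 libraries, among them the placental cathepsins and Ctsg, the serine protease of neutrophil granules. Ctsk, the collagen-degrading cathepsin of osteoclasts, is the direct neighbour of Ctss, 17423 bases before it on the same strand of chromosome 3. It was 1.35, 2.07, 1.07, 1.68, 2.42 and 1.56 FPKM in CFA 1 to 6, against 1.33, 1.70, 1.58, 1.57, 1.66 and 1.85 FPKM in saline 1 to 6. The groups overlapped, and the difference of 0.02 (SE 0.11) did not pass (limma, adjusted p = 0.978).

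None of the 137 tested genes in the other lists passed in the limma fit; at an unadjusted p under 0.05 there were 19 (13.9%), with 9 higher and 10 lower, against 1024 of all tested genes (7.67%). That balance moved to 10 higher and 18 lower without CFA 4, and to 10 higher and 6 lower as TPM. The share of the listed genes was 20.4% without CFA 4 and 10.9% with Xist as a covariate. In the libraries with Xist above 1 FPKM it was 8.03%, with 8 higher and 3 lower. The share of all tested genes in these settings is not given here. With voom on the recovered reads 1 passed, Cx3cr1. The lists cover inhibitors, partners, substrates, sorting, other lysosomal genes and cell type markers, and their medians are given beside that of all tested genes, -0.00427. Of all tested genes 6408 were positive and 6937 negative. Rescaled to TPM the median of all tested genes was 0.0328, so the signs of small differences depend on the scaling. The counts of signs below are those of the FPKM fit.

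No cathepsin inhibitor passed. Of 11 listed, 4 were tested, 2 positive and 2 negative, with a median of -0.00116. Cst3, the abundant secreted cystatin C, was 667 ± 82.8 FPKM in CFA and 672 ± 40.2 FPKM in saline (difference -0.02, limma adjusted p = 0.978), and the cytosolic Cstb 23.5 ± 1.502 FPKM in CFA and 23.2 ± 1.26 FPKM in saline (0.02, limma adjusted p = 0.969). Serpinb1a, an inhibitor of granule serine proteases, had the smallest p of the list, at 4.401 ± 1.08 FPKM in CFA and 2.98 ± 0.900 FPKM in saline (0.44, limma adjusted p = 0.463).

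Cst7, which encodes cystatin F, an inhibitor of cathepsins C and L made by activated microglia and other immune cells, was too low to be tested. It was 1.25, 0.847, 0.324, 0.402, 0.206 and 0.572 FPKM in CFA 1 to 6, against 0.0839, 0.0532, 0.254, 0.0603, 0.0869 and 0.111 FPKM in saline 1 to 6. In 5 of 6 CFA libraries it was above every saline library, on 2 to 49 reads per library. In the fit with no filter on low values its difference was 0.50 (SE 0.13, limma adjusted p = 0.552).

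None of the 4 tested genes for cathepsin S substrates and release passed, with 1 positive and 3 negative (median -0.22). Cx3cl1, the fractalkine gene of neurons, was 145 ± 11.6 FPKM in CFA and 150 ± 8.16 FPKM in saline (difference -0.05, limma adjusted p = 0.884). Cx3cr1, its microglial receptor gene, was 5.48, 1.68, 1.70, 2.14, 6.32 and 1.76 FPKM in CFA 1 to 6, against 9.99, 9.86, 8.20, 8.78, 8.48 and 9.31 FPKM in saline 1 to 6. The groups did not overlap, CFA 1 and CFA 5 stood apart from the other 4 CFA libraries, and the difference of -1.41 (SE 0.24) did not pass (limma, adjusted p = 0.115). It passed without CFA 1 and without CFA 5. These 2 libraries were also the highest of the CFA group in Gt(ROSA)26Sor, at 3.49 and 1.98 FPKM, where the other 4 CFA libraries were at 0.126 to 0.428 FPKM. What sets libraries with the same WT label apart in these genes was not tested. Where it follows the groups it cannot be told apart from the treatment, for Cx3cr1 or for any other difference, that of Ctss included.

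Cd74, the invariant chain, was 1.34, 2.43, 2.30, 2.07, 1.99 and 2.69 FPKM in CFA 1 to 6, against 2.82, 2.79, 3.46, 3.37, 3.51 and 2.66 FPKM in saline 1 to 6. All CFA libraries except CFA 6 lay under the lowest saline value, and the difference of -0.40 (SE 0.10) did not pass (limma, adjusted p = 0.290). P2rx7, the ATP receptor whose activation releases cathepsin S from microglia in the spinal cord, had a difference of 0.09 (limma adjusted p = 0.817).

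The sorting and hydrolase genes that serve all cathepsins stayed near the median of all genes. Of 9 lysosomal sorting genes, 3 were positive and 6 negative (median -0.02), with the mannose 6-phosphate receptor gene M6pr at 26.7 ± 1.152 FPKM in CFA and 26.1 ± 1.24 FPKM in saline. Of 21 lysosomal hydrolases and membrane proteins, 9 were positive and 12 negative (median -0.00269). The smallest p was that of the mannosidase gene Man2b1, above every saline library in 5 of 6 CFA libraries (0.17, limma adjusted p = 0.438).

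The 7 tested lysosomal proteases outside the cathepsin family were all negative, with a median of -0.04. They include Lgmn, the asparaginyl protease legumain that processes several cathepsins, at 51.5 ± 5.87 FPKM in CFA and 52.5 ± 2.29 FPKM in saline (limma adjusted p = 0.945). Among 6 partners, 1 was positive and 5 negative (median -0.03). Psap, which encodes the saposin precursor, was 598 ± 59.7 FPKM in CFA and 608 ± 21.6 FPKM in saline, Grn, the lysosomal glycoprotein progranulin, 14.2 ± 1.10 FPKM in CFA and 13.6 ± 0.610 FPKM in saline, and Neu1 11.8 ± 0.954 FPKM in CFA and 12.5 ± 0.827 FPKM in saline.

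The V-ATPase is the pump that acidifies lysosomes and synaptic vesicles. Of 16 of its subunits and accessory proteins, 14 were negative and 2 positive in the FPKM fit (median -0.03). Atp6v0c had the smallest p, at 16.0 ± 0.655 FPKM in CFA and 18.1 ± 0.743 FPKM in saline (-0.17, limma adjusted p = 0.206). Tfeb, at 1.97 ± 0.324 FPKM in CFA and 1.92 ± 0.263 FPKM in saline, differed by 0.02 (limma adjusted p = 0.978).

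Of 23 microglia markers, 20 were tested, 12 positive and 8 negative, with a median of 0.06. The groups did not overlap for C1qa, a complement gene (35.1 ± 3.17 FPKM in CFA, 27.8 ± 1.87 FPKM in saline, difference 0.32, limma adjusted p = 0.140), and for the Fc receptor subunit gene Fcer1g (6.56 ± 0.934 FPKM in CFA, 4.81 ± 0.573 FPKM in saline, 0.38, limma adjusted p = 0.206). The other C1q genes, C1qb (0.33, limma adjusted p = 0.165) and C1qc (0.36, limma adjusted p = 0.143), were above every saline library in 5 of 6 CFA libraries, and both passed without CFA 3. Other markers of the list were lower in CFA. Csf1r, the receptor that microglia need for survival, was 12.4 ± 2.20 FPKM in CFA and 16.1 ± 1.52 FPKM in saline (-0.36, limma adjusted p = 0.308), with 4 of 6 CFA libraries under the lowest saline value. The purine receptor gene P2ry12 was 6.76 ± 1.18 FPKM in CFA and 8.02 ± 0.707 FPKM in saline (-0.23, limma adjusted p = 0.583), likewise with 4 of 6 under the lowest saline value. Tmem119 ranged from 7.40 to 10.5 FPKM in CFA and from 7.39 to 9.15 FPKM in saline.

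The summed level of the 23 markers was 171 to 227 FPKM in CFA and 170 to 192 FPKM in saline. Their mean on the log2 scale, over the 20 tested, was 2.89 ± 0.130 in CFA and 2.84 ± 0.0538 in saline (SD, n = 6 each), 0.05 higher in CFA. With this mean as a covariate the difference of Ctss was 0.47. In bulk tissue a change in the number of microglia cannot be told apart from a change in RNA per cell, and the source of the Ctss reads was not measured.

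None of 7 border macrophage markers and none of 7 monocyte and neutrophil markers reached the expression filter. Their summed levels were 2.25 to 3.68 FPKM in CFA and 2.38 to 3.75 FPKM in saline for border macrophages, and 0.400 to 1.02 FPKM in CFA and 0.0506 to 1.35 FPKM in saline for monocytes and neutrophils.

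A pair of genes shared by macrophages, microglia and other myeloid cells was higher in all CFA libraries, as Ctss was. The pair is in none of the lists and was named with its values known. Other genes of such cells were lower in CFA, among them Csf1r, P2ry12 and Cx3cr1 (above). Mpeg1, which encodes the pore-forming protein perforin-2, was 6.23, 6.43, 6.78, 6.37, 6.79 and 6.34 FPKM in CFA 1 to 6, against 4.88, 5.15, 4.33, 5.15, 4.73 and 4.34 FPKM in saline 1 to 6. It rose by 0.38 (SE 0.05, limma adjusted p = 0.0168), but did not pass without CFA 6 (0.39), without saline 5 (0.38), without saline 3 and saline 5 (0.35), with the replicate block (0.38), with Xist as a covariate (0.37) or in the libraries with Xist above 1 FPKM (0.32). Lyz2, the lysozyme gene of myeloid cells, was 6.89, 8.27, 7.00, 7.29, 5.84 and 11.3 FPKM in CFA 1 to 6, against 4.76, 3.47, 5.12, 4.04, 3.69 and 3.23 FPKM in saline 1 to 6. The groups did not overlap, and the difference of 0.78 (SE 0.13) did not pass (limma, adjusted p = 0.101). The part of other myeloid cells in the Ctss values was not tested.

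Erythroid markers summed to 78.9 to 668 FPKM in CFA and 157 to 333 FPKM in saline (5 of 5 positive, none passed). The striatal markers ranged from 76.7 to 233 FPKM in CFA and from 73.5 to 129 FPKM in saline (6 of 6 positive, none passed); with their mean as a covariate the difference of Ctss was 0.47. The part of erythroid RNA in the Ctss values was not tested.

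Among neural lists, 8 of 8 tested neuron markers were negative (median -0.06), 6 of 6 oligodendrocyte markers positive (median 0.15) and 4 of 7 astrocyte markers negative (median -0.03). The endothelial markers had 3 negative and 2 positive (median -0.11), and all 6 lateral septum markers were negative (median -0.14). The 2 tested choroid plexus markers were negative (median -1.16), with summed levels of 17.5 to 58.0 FPKM in CFA and 15.9 to 2332 FPKM in saline.

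Within a group the contrast plays no part, so the relation of each member to the microglia marker mean was tested in the 6 CFA and the 6 saline libraries apart. For Ctss Pearson's r was 0.20 in CFA (exact permutation p = 0.743, adjusted p = 0.874; Spearman's rho 0.26, exact p = 0.658) and -0.11 in saline (exact permutation p = 0.853, adjusted p = 0.948; rho 0.14, exact p = 0.803). Without the 2 libraries farthest from the median, 4 libraries were left and r was 0.17 in CFA and -0.41 in saline. Rescaled to TPM it was 0.26 in CFA and -0.65 in saline, so the saline value depends on the scaling. Neither relation passed, which with 6 libraries does not show that there is none.

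Of 20 such relations, 10 members in 2 groups, none passed after adjustment over the 20. The lowest p values were those of Ctsc in saline (r = -0.85, exact permutation p = 0.0347, adjusted p = 0.389) and Ctso in saline (r = -0.82, exact permutation p = 0.0389, adjusted p = 0.389). Without the 2 farthest libraries these were -0.77 for Ctsc and -0.66 for Ctso. In CFA the r of Ctsc was 0.32 and that of Ctso 0.67, and the difference between groups was not tested. With 6 libraries the smallest p that 720 pairings allow is 0.00139.

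**Figure D4:**
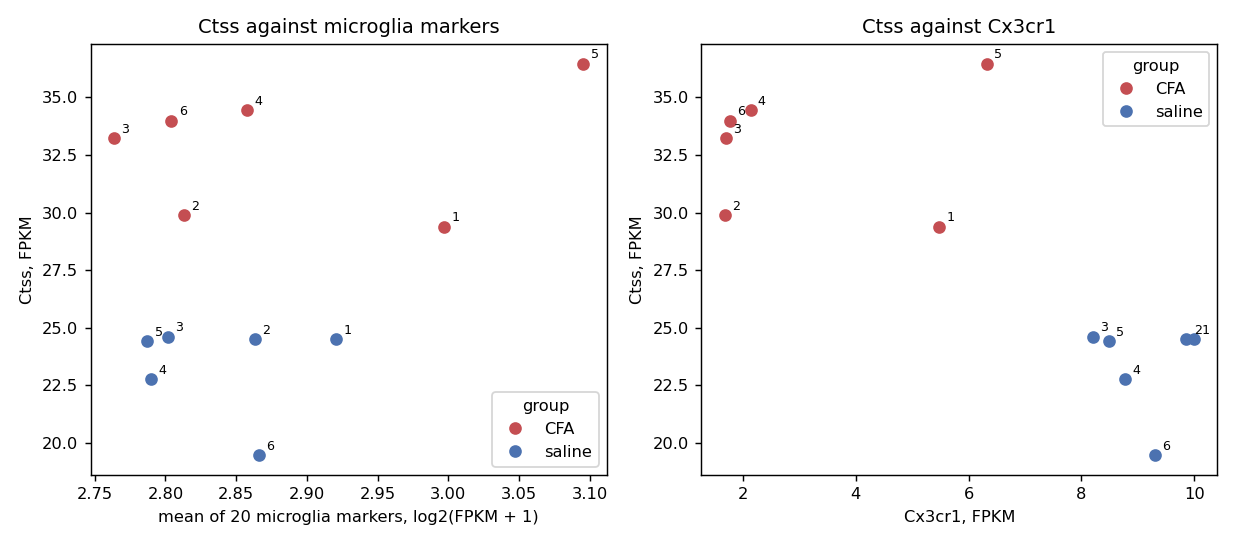
Ctss (FPKM) against the mean of 20 microglia markers (left, log2(FPKM + 1)) and against Cx3cr1 (right, FPKM), each point 1 library with its replicate number. Marker means were 2.76 to 3.10 in CFA and 2.79 to 2.92 in saline, and Ctss was 29.4 to 36.5 FPKM in CFA and 19.5 to 24.6 FPKM in saline. Of the 20 markers 12 were higher and 8 lower in CFA, so similar means do not show similar amounts of microglia. CFA 1 and CFA 5, highest of their group in Cx3cr1, hold the lowest and the highest Ctss of the group.

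The genes most like Ctss across libraries, by Pearson's r over 12 libraries after the mean of each group was taken away, were Sf3a3, a splicing factor subunit (r = 0.88), Eaf1 (0.86), the ubiquitin ligase gene Rnf40 (0.84), Lrrc6 (0.82) and the ubiquitin-conjugating enzyme gene Cdc34 (0.81). None is a microglia marker of the list, whose 20 tested members had r from -0.26 (Gpr34) to 0.57 (Tyrobp) with Ctss, with a median of 0.04. The 9 other cathepsins had r from -0.08 (Ctsl) to 0.47 (Ctsa) with Ctss, with a median of 0.13. These genes were picked from 13344 values over few libraries, passing over predicted genes, and are a description only.

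Among pairs of cathepsins the highest values of the same measure did not involve Ctss. They were 0.77 between Ctsz and Ctsa, 0.76 between Ctsb and Ctsz, 0.73 between Ctsl and Ctsc and 0.71 between Ctsc and Ctso. The lowest value was -0.66, between Ctsh and Ctsf. All pairs share the same 12 libraries, saline 3 and saline 5 with high Ttr included.

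The closest gene to Ctsb was App, the amyloid precursor gene (0.95), then Os9 (0.92). For Ctsd they were Ccnd3 (0.95) and Mfn1 (0.91), and for Ctsz the glycosylation genes Rpn1 (0.93) and Chpf (0.91). For Ctsa they were Lcat (0.94) and Pcdhga8 (0.94), and for Ctsf the mitochondrial genes Idh3b (0.94) and Stoml2 (0.88). Ctsl was followed by Snx9 (0.92) and Daw1 (0.91), Ctsc by Alms1 (0.93) and Ccdc34 (0.89), Ctsh by Cavin1 (0.87) and Msn (0.86), and Ctso by Pla2g16 (0.94) and Olfml1 (0.91).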

How the data were processed

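The authors deposited FPKM, 1 column per library, with the gene length they divided by (per the file headers). HISAT2 2.0.5 and mm10 are named in the submitters' processing notes; no source used here gives the counter, its strand setting or the annotation. A further 6 columns of per-sample values matched no sample and were not used. FPKM times gene length fell in whole steps, so reads per gene were recovered (100% within 0.01 read of a whole number). Of the 10 members, 9 had the coordinates of GENCODE M21 (GRCm38, mm10); coordinates are those of the table, counted from 1.

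Groups came from the labels. Groups were compared with limma 3.58.1 (R 4.3.3). Values entered as log2(FPKM + 1), eBayes used a variance trend, tests were two-sided, and p-values were adjusted by Benjamini-Hochberg over the 13345 genes that reached 1 FPKM in 6 or more libraries (threshold 0.05). Differences are CFA minus saline on that scale, which understates the change of low genes. The fit was tested on simulated reads. Members, lists, tests and named genes were chosen with earlier results of these data known. Named were the 10 members, up to 3 genes per list with the smallest p and 7 fixed genes. The genes most like each member were also named, passing over predicted genes. Cst7, M6pr, Tmem119, Fcer1g, Csf1r, P2ry12 and Ttr fall outside this rule and were named after their values were seen. So do Mpeg1 and Lyz2, which are in none of the lists and were named with their values known. Xist, Ddx3y and the noncoding gene that varied among libraries of the same WT label are in none of the lists either. Those genes also fall outside this rule. Alternatives covered pseudocount, filter, scaling, variance model, voom on recovered reads, replicate number, covariates and left-out libraries. Python 3.11.15, pandas 2.3.3, scipy 1.17.1 and matplotlib 3.10.9 made the tables and plots.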

Additional observations from a re-analysis of the deposited data

Results flagged for a closer look

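In 36 groups of 6 libraries (the 10 cathepsins, the microglia marker mean and 7 related genes, each in CFA and in saline), 3 held 1 library whose gap to the nearest other exceeded Dixon's 95% critical value for 6 values; chance gives about 1 such group in 20. Ctss was 19.5 FPKM in saline 6, where the next saline library was 22.8 FPKM; without saline 6 its difference was 0.43. Ctsf was 23.3 FPKM in saline 5, one of the libraries with high Ttr, where the next was 26.5 FPKM. Psap was 715 FPKM in CFA 4, where the next CFA library was 596 FPKM.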

How the results depend on the processing

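The difference of Ctss stayed positive in all 25 alternatives, and those of Ctsb, Ctsz, Ctsc, Ctsh and Ctso kept their sign wherever they were tested. Ctsd turned to 0.03 without saline 3 and saline 5, Ctsa to -0.01 without CFA 4, Ctsf to 0.01 as TPM, 0.02 with Xist as a covariate and 0.02 in libraries with Xist above 1 FPKM, and Ctsl in 9 alternatives. No member moved by more than its spread between libraries.

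Of 10 members, 1 passed, Ctss. The count was 0 with no filter, without the variance trend, with the replicate block, without saline 3 and saline 5, with Xist as a covariate and in libraries with Xist above 1 FPKM (5 CFA, 2 saline, chosen after seeing the data), and 0 to 1 when 1 library was left out (0 without CFA 3, CFA 4, CFA 6, saline 2, saline 4 or saline 5). Over all genes, 4 passed, against 2 with no filter, 2 without the trend, 1 with the replicate block, 1 with Xist as a covariate, 1 in libraries with Xist, 9 with the microglia marker mean and 11 with the striatal marker mean as a covariate, and 1 to 11 with 1 library left out. Of the other listed genes 0 passed, against 1 with voom on recovered reads (Cx3cr1), 2 with the microglia marker mean (Csf1r and Cx3cr1), 1 with the striatal marker mean (Cx3cr1) and 0 to 2 with 1 library left out. The filter adds or removes genes to adjust over, and leaving out libraries shortens the groups; otherwise the cause was not tested.

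For libraries of the 2 groups that share a replicate number, the correlation of their deviations from the group means was -0.0118 to 0.159. Of 12 libraries, 5 correlated best with their own number, and whether chance gives as many was not tested. Ctsc and Ctsh, the least abundant members, fell outside a filter at 5 FPKM and have no value there.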
